A study of Mus musculus with 9 samples.

Results

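The genes Il15, Il15ra, Il18, Il18bp and Klrk1, which belong to the exchange between macrophages and natural killer (NK) cells through the cytokines IL-15 and IL-18 and the receptor NKG2D, were chosen by name. They were 5 of 19752 genes with a probe set of their own, and each had 1 such probe set. Per the rule, a gene is represented by its probe set with the highest mean over the 9 arrays. The genes were named with results of these same arrays known, so their levels and differences are given as a description and no p-value is attached to them. The measurements are messenger RNA levels in peritoneal macrophages, sorted from the lavage of male C57BL/6 mice aged 6 weeks, on 1-colour Affymetrix arrays. Mice had received 10000 U of recombinant IFNa (interferon alpha, type I, n = 4) or 8000 U of recombinant IFNg (interferon gamma, type II, n = 2) under the skin 2 h before, or no treatment (n = 3). Nothing in the labels gives a mouse injected with vehicle, so a difference from untreated cannot be told apart from an effect of injection. The titles of the untreated samples alone carry the letters SPF, and whatever these mark cannot be told apart from treatment. Treated cells are labelled as sorted on F4/80 and ICAM2, and untreated cells on F4/80 alone. The design text of the series describes a single sort, so whether the sorts differed is not settled. The defining genes of that macrophage were bright on every array: the summed intensity of 11 measured markers, Adgre1 (F4/80) and Icam2 among them, ranged from 79743 to 85068 after IFNa, from 81810 to 84746 after IFNg and from 83447 to 87226 untreated. Alox15, Lyz2 and Prg4, at 12559 or more on every array, weigh most in this sum. It therefore does not show the level of Icam2 (2489 to 3547 after IFNa, 3558 to 3649 after IFNg and 3116 to 3873 untreated). Of the 11, the transcription factor gene Gata6 alone passed the test described below, as lower after IFNa (-1.05 ± 0.17, adjusted p = 0.00997) and after IFNg (-1.16 ± 0.21, adjusted p = 0.0242). Of all genes 0.856% and 0.111% were lower. At an unadjusted p under 0.05 in that test, 1 of the 11 was higher and 2 lower after each interferon (4.72% and 7.20% of all genes after IFNa, 5.36% and 2.87% after IFNg). On every treated array Timd4 was higher (5783 to 7381 against 5354 to 5661) and Garnl3 lower (1698 to 2911 against 3064 to 3480) than on any untreated array. Shares of all genes for such non-overlap are given below.

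IL-15 is a cytokine that NK cells need to survive and mature. Macrophages and dendritic cells load it on the receptor chain IL-15R alpha, encoded by Il15ra, and hold the pair on their surface for NK cells, which carry the signalling chains of the receptor. IL-18 is stored in the cell as a precursor that caspase-1 cuts, and it makes NK cells secrete interferon gamma. The product of Il18bp is a secreted protein that binds IL-18 and keeps it from its receptor. Klrk1 encodes NKG2D, an activating receptor best known from NK cells and T cells, which signals through the adaptor proteins DAP10 and DAP12.

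Promoter windows of 250 bases before and 50 bases after a transcription start were taken from a table of RefSeq (GRCm38.p6). It held windows for 4 of the 5 genes and none for Il15. The windows were searched on both strands for GAAANNGAA, the core that interferon regulatory factors bind, where N is any base. Of 32851 mouse windows of that length, 8.56% held this motif. The 3 windows with a match, shown because they hold this 9-letter core, belong to Il15ra, which has 2 starts listed, and to Klrk1. No longer response element was searched for. Capitals mark the match to GAAANNGAA, read on the opposite strand in the first and the last.
Il15ra upstream start, chr2:11705043-11705342, plus strand: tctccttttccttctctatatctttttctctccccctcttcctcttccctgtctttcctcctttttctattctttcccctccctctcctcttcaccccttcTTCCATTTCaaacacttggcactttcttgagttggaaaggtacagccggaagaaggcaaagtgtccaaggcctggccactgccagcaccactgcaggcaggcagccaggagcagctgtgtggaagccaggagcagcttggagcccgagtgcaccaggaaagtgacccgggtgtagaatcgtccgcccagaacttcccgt
Il15ra downstream start, chr2:11705462-11705761, plus strand: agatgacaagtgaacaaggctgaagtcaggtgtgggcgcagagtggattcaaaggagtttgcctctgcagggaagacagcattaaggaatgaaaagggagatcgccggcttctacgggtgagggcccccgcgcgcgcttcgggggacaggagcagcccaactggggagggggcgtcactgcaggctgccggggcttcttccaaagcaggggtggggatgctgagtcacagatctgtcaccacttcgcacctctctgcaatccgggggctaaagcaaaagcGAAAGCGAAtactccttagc
Klrk1, chr6:129623815-129624114, minus strand: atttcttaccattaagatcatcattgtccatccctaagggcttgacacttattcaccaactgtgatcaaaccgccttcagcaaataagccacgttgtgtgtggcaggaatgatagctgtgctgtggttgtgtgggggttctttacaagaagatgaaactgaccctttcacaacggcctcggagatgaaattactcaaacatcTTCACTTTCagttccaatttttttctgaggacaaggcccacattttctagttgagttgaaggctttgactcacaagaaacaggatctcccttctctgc
The match began 149 bases before the upstream start of Il15ra, at base 31 after its downstream start and 48 bases before the start of Klrk1. The motif was not found in the windows of Il18 and Il18bp. A match describes letters in the window and does not show that a factor was bound there.

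For all 5 genes the treated arrays lay above the untreated ones. IFNa gave the highest levels of Il15, Il15ra, Il18 and Klrk1, followed by IFNg, and IFNg gave the highest level of Il18bp, followed by IFNa. All 5 genes were higher on every IFNa array than on any untreated array, as were 3.68% of all genes (6.75% were lower on every IFNa array), and all 5 were higher on every IFNg array than on any untreated array, as were 12.3% of all genes (15.5% were lower). On every IFNa array 4 of the 5 genes were higher than on either IFNg array (12.8% of all genes), and Il18bp was lower (15.6% of all genes). Since these arrays were known when the genes were chosen, nothing is read from these counts. In each pair of neighbouring groups the arrays did not overlap.

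**Figure D1:**
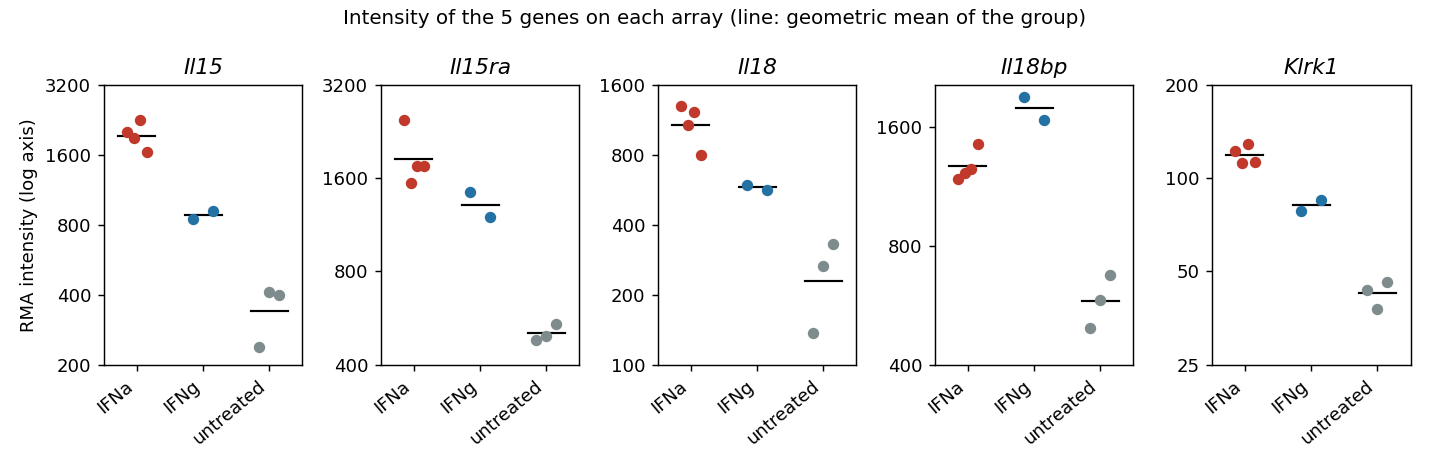
Deposited RMA intensity (log axis) of each gene on each of the 9 arrays, in the order IFNa (n = 4), IFNg (n = 2) and untreated (n = 3), with a line at the geometric mean of the group. The IFNa arrays are highest for 4 genes, and for Il18bp the 2 IFNg arrays are highest.

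The cytokine gene Il15 had the largest difference from untreated of the 5 after IFNa. Its intensity was 2005, 1883, 2259 and 1649 on the 4 IFNa arrays, 851 and 915 on the 2 IFNg arrays, and 239, 412 and 400.4 on the 3 untreated arrays. The 3 groups did not overlap, and untreated replicate 1 lay well below the other untreated arrays. On the log2 scale the mean level was 10.92 ± 0.19 after IFNa (SD, n = 4), 9.79 ± 0.07 after IFNg (n = 2) and 8.41 ± 0.44 untreated (n = 3). The difference from untreated was 2.51 ± 0.20 after IFNa (SE, 5.69-fold) and 1.38 ± 0.24 after IFNg (2.59-fold), and IFNa exceeded IFNg by 1.13 ± 0.22 (2.19-fold).

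Il15ra, the receptor chain that carries IL-15 to the cell surface, followed the same order with a smaller gap between the interferons. Intensities were 2460, 1542, 1755 and 1753 after IFNa, 1440 and 1201 after IFNg, and 480.4, 494 and 543 untreated. Untreated arrays were close together, and the lowest IFNa array was only just above the highest IFNg array. Il15ra was higher than untreated by log2 1.87 ± 0.16 after IFNa (3.66-fold) and by 1.38 ± 0.20 after IFNg (2.60-fold). The difference of IFNa from IFNg was 0.49 ± 0.19 (1.41-fold).

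After IFNg, Il15 and Il15ra differed from untreated by nearly the same amount on all arrays (by 1.12 and 1.34 without IFNa replicate 4 and untreated replicate 1), and after IFNa the cytokine gene differed by more than its receptor gene. The log2 ratio of Il15 to Il15ra within an array, less its untreated mean, was 0.28, 0.86, 0.93 and 0.48 on the IFNa arrays, -0.19 and 0.18 on the IFNg arrays, and -0.44, 0.31 and 0.13 on the untreated arrays. IFNa replicate 1 lay below the highest untreated array, so these ratios overlapped between IFNa and untreated but not between IFNa and IFNg.

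Il18, the gene of the stored cytokine, had the same order of groups as Il15. It had intensities of 1302, 1073, 1219 and 796 after IFNa, 596 and 564 after IFNg, and 137, 265 and 330 untreated. The lowest IFNa array was replicate 4 and the lowest untreated array was replicate 1, the 2 arrays with the narrowest range of intensity in the series (their gene quartiles lay log2 2.06 and 2.18 apart, against 2.60 to 2.96 on the other 7 arrays). Log2 means were 10.08 ± 0.31 after IFNa (SD, n = 4), 9.18 ± 0.06 after IFNg (n = 2) and 7.84 ± 0.66 untreated (n = 3), the widest spread of the 5 genes within a group. Il18 was higher than untreated by 2.24 ± 0.28 after IFNa (SE, 4.72-fold) and by 1.34 ± 0.34 after IFNg (2.54-fold), and IFNa exceeded IFNg by 0.90 ± 0.32 (1.86-fold). Without those 2 arrays the differences from untreated were 2.01 after IFNa and 0.97 after IFNg.

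Il18bp, the gene of the secreted inhibitor of IL-18, had the opposite order of the interferons. Its intensity was 1180, 1223, 1252 and 1447 after IFNa, 1913 and 1664 after IFNg, and 495, 583 and 676 untreated. Both IFNg arrays lay above all IFNa arrays. It was higher than untreated by log2 1.13 ± 0.14 after IFNa (2.19-fold) and by 1.62 ± 0.16 after IFNg (3.08-fold). IFNa minus IFNg was -0.49 ± 0.16. The IFNa difference was 0.96 without the 2 narrow arrays. Of these, IFNa replicate 4 was the highest IFNa array and untreated replicate 1 the lowest untreated array.

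**Figure D2:**
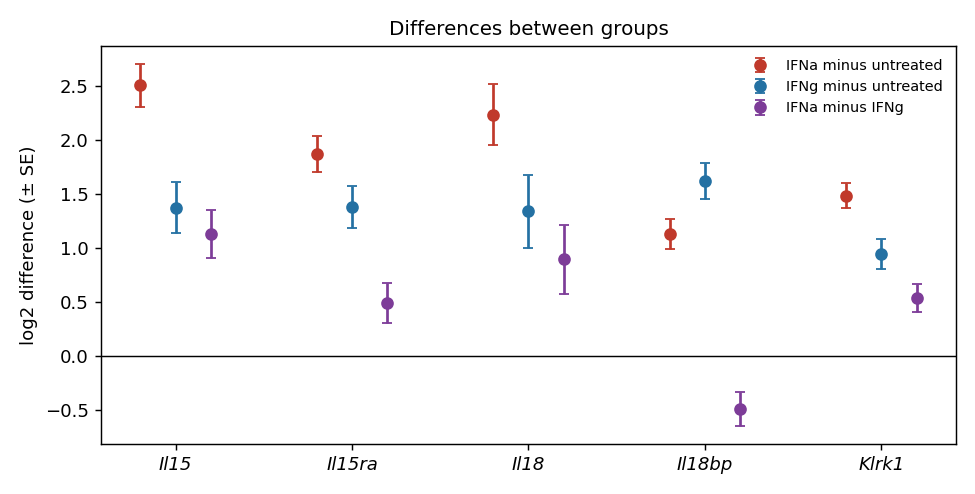
Log2 differences with their SE for the 5 genes: IFNa minus untreated, IFNg minus untreated and IFNa minus IFNg. The last is above 0 for 4 genes and -0.49 for Il18bp.

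The message for IL-18 was next set against that of its inhibitor within each array. The log2 ratio of Il18 to Il18bp, less its untreated mean, was 1.48, 1.15, 1.30 and 0.48 on the IFNa arrays, -0.34 and -0.22 on the IFNg arrays, and -0.51, 0.20 and 0.31 on the untreated arrays. All IFNa arrays lay above all others, with IFNa replicate 4 closest to them, and the IFNg arrays lay within the untreated range. Mean ratios were 1.11 ± 0.44 after IFNa (SD, n = 4) and -0.28 ± 0.09 after IFNg (n = 2), against 0.00 ± 0.45 untreated (n = 3). Without the 2 narrow arrays the difference from untreated was 1.06 after IFNa and -0.53 after IFNg.

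**Figure D3:**
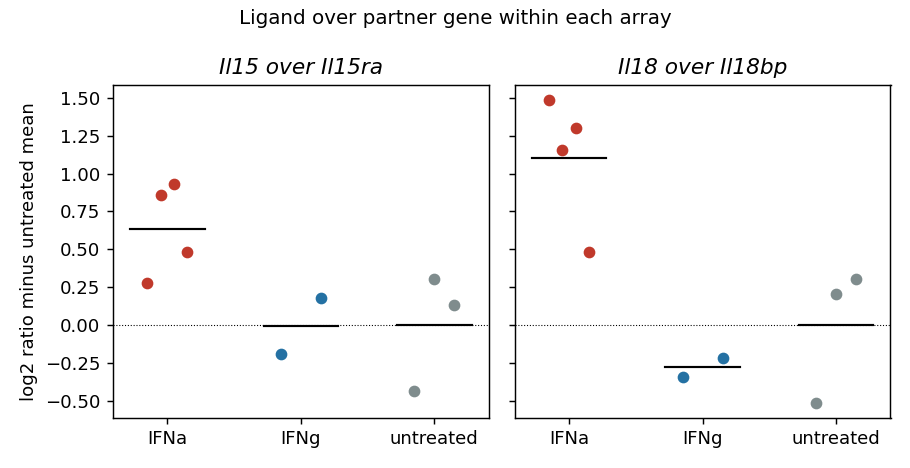
Log2 ratio of Il15 to Il15ra and of Il18 to Il18bp within each array, less the mean of the untreated arrays, with a line at the group mean. For Il18 over Il18bp the 4 IFNa arrays, from 0.48 to 1.48, lie above the IFNg arrays, at -0.34 and -0.22, and the untreated arrays.

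Klrk1, the gene of the receptor NKG2D, had a dim probe set, with intensities of 122, 112, 129 and 112 after IFNa, 78.4 and 85.1 after IFNg, and 43.7, 37.8 and 46.3 untreated. On the 3 untreated arrays it lay below the lower quartile of all genes and above their 5th percentile, and on all 6 treated arrays it lay above the lower quartile. It was higher than untreated by log2 1.48 ± 0.12 after IFNa (2.80-fold) and by 0.94 ± 0.14 after IFNg (1.92-fold), and IFNa exceeded IFNg by 0.54 ± 0.13 (1.45-fold). The spread within groups was the smallest of the 5 genes, with an SD of 0.12 over all groups together.

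NK cells and T cells carry NKG2D, and macrophages were sorted here, so markers of those cells were read beside Klrk1. Of 17 NK cell markers measured, 11 lay below the lower quartile of all genes on all 9 arrays. Among these 11 were Ncr1 (from 30.02 to 42.7 after IFNa and 35.3 to 37.8 after IFNg, against 37.0 to 56.3 untreated) and Klrb1c (17.9 to 26.7, 19.6 to 20.7 and 22.7 to 26.4). The summed intensity of the 17 markers was 1083 to 1376 after IFNa, 1294 to 1427 after IFNg and 1059 to 1418 untreated, and that of 13 T cell markers was 1470.2 to 1884, 1489 to 1567 and 1497 to 1972. The integrin gene Itga2 alone had 220 to 318 after IFNa, 556 and 453 after IFNg and 176 to 251 untreated. The sum of the 17 after IFNg therefore does not show the level of the other NK cell markers. Klrd1 and Klrc1, receptor genes expressed with Klrk1 on NK cells, differed from untreated by log2 0.27 ± 0.14 and 0.28 ± 0.19 after IFNa and by -0.02 ± 0.16 and 0.10 ± 0.23 after IFNg. Their IFNa differences were the largest among the 17 markers, whose median was -0.02 after IFNa and -0.19 after IFNg. Klrc2, a receptor gene of the same family as Klrc1, differed by 0.10 ± 0.16 after IFNa and -0.46 ± 0.19 after IFNg. In the limma fit none of the NK markers passed an adjusted p of 0.05 after IFNa (1.79% of all genes were higher and 0.856% lower). None did at an unadjusted p under 0.05 (4.72% and 7.20% of all genes). After IFNg 1 was higher and 1 lower at an unadjusted p under 0.05 (5.36% and 2.87% of all genes). At an adjusted p under 0.05, 1 passed after IFNg (1.24% of all genes were higher), Itga2 (1.26 ± 0.21, adjusted p = 0.0186), an integrin gene that other cells also use. Its call ended without either IFNg array, without untreated replicate 2 and with the IFNa arrays left out of the fit (adjusted p = 0.0721 to 0.288). IFNa minus IFNg for Itga2 was -1.04 ± 0.20 (adjusted p = 0.0467), which did not pass in 12 of 17 alternatives. Fewer cells of a type and less RNA per cell cannot be told apart in such bulk samples.

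**Figure D4:**
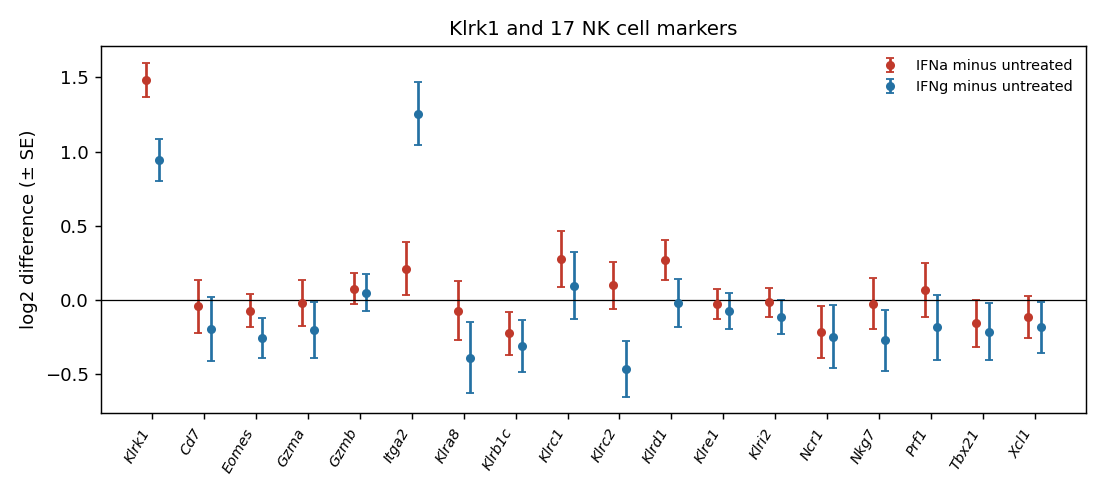
Log2 difference from untreated (with SE) of Klrk1 and 17 NK cell markers, for IFNa and IFNg. Klrk1 stands at 1.48 after IFNa and 0.94 after IFNg, and among the markers Itga2 stands at 1.26 after IFNg.

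The adaptor genes of NKG2D were not called. Tyrobp, which encodes DAP12, was bright on all arrays and differed from untreated by -0.05 ± 0.11 after IFNa and 0.00 ± 0.13 after IFNg. Hcst, which encodes DAP10, differed by -0.17 ± 0.11 and -0.18 ± 0.13, with 258 to 297 on the treated arrays against 305 to 333 untreated. Neither passed the test (limma adjusted p = 0.65 or more for both genes and interferons). Pik3cd, a subunit of the lipid kinase PI3K, rose after IFNg by 0.92 ± 0.14 (adjusted p = 0.0123), the single call among 9 adaptor and signalling genes. Its call ended without either IFNg array or untreated replicate 2, with the IFNa arrays left out, and under quantile normalization (adjusted p = 0.0678 to 0.223). Only 2 of 9 genes for ligands of NKG2D had a probe set of their own, and neither H60b (-0.49 after IFNa and -0.13 after IFNg) nor Raet1d (-0.01 and -0.14) passed the test.

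The wider pathways around the 5 genes were read from 7 lists chosen by role, with 70 of 81 genes measured. Earlier results of these data were known when the lists were chosen. The counts and p-values of listed genes are therefore a description, and nothing is read from their excess over the shares of all genes. After IFNa 4 of the 70 genes were higher (1.79% of all genes were, at an adjusted p under 0.05 in limma) and none lower (0.856% of all genes), with 10 and 5 at an unadjusted p under 0.05 (4.72% and 7.20% of all genes). After IFNg 5 were higher (1.24% of all genes) and none lower (0.111%), with 10 and 1 unadjusted (5.36% and 2.87% of all genes). The median log2 difference of the 70 was -0.02 after IFNa and 0.00 after IFNg, against -0.02 and -0.06 over all genes. Both comparisons share the untreated arrays.

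The list of IL-18 processing and release, which includes inflammasome sensors, held 3 of the 4 calls after IFNa and 2 of the 5 after IFNg (1.79% and 1.24% of all genes were higher). Casp1, the caspase that cuts the IL-18 precursor, had intensities of 1080, 1145, 1332 and 1026 after IFNa, 1306 and 1035 after IFNg, and 339, 456 and 624 untreated. It rose by log2 1.31 ± 0.20 after IFNa (adjusted p = 0.00602) and by 1.34 ± 0.24 after IFNg (adjusted p = 0.0247). Casp4, which encodes the inflammatory caspase-11 of the mouse, rose by 1.62 ± 0.27 after IFNa (adjusted p = 0.0102) and 1.87 ± 0.32 after IFNg (adjusted p = 0.020). Aim2, a sensor of cytosolic DNA that activates caspase-1, rose by 1.13 ± 0.17 after IFNa (adjusted p = 0.00595) and differed by 0.26 ± 0.21 after IFNg, and the difference between the interferons was 0.87 ± 0.19 (adjusted p = 0.0979), or 0.90 ± 0.16 without the 2 narrow arrays described above (adjusted p = 0.0235). The other 11 of 14 measured genes passed after neither interferon. Among them were Pycard (0.17 and 0.33), the inflammasome adaptor, Nlrp3 (-0.22 and -0.57), an inflammasome sensor, and Gsdmd (0.19 and 0.31), whose product forms the pore through which IL-18 leaves the cell. The 3 IFNa calls held under all alternatives tried at that threshold (adjusted p up to 0.0403). The IFNg calls of Casp1 and Casp4 ended when either IFNg array or all IFNa arrays were left out. That of Casp1 also ended on leaving out untreated replicate 2, IFNa replicate 1 or IFNa replicate 2 (adjusted p = 0.0517 to 0.353 over both genes).

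The receptor for IL-18 has 2 chains. Il18rap, which encodes the accessory chain that signalling requires, had intensities of 85.4, 75.2, 76.4 and 87.9 after IFNa, 262 and 318 after IFNg, and 76.3, 77.0 and 90.4 untreated. The 2 IFNg arrays stood clear of all others, and the IFNa arrays lay within the untreated range apart from replicate 2, just below it. Il18rap rose by log2 1.84 ± 0.15 after IFNg (3.57-fold, adjusted p = 2.25e-04) and differed by 0.00 ± 0.12 after IFNa (adjusted p = 0.999). IFNa minus IFNg was -1.83 ± 0.14 (adjusted p = 3.01e-04). These 2 calls held under all 17 alternatives tried at an adjusted p under 0.05 (adjusted p up to 0.0124). Il18r1, the chain that binds IL-18, lay below the lower quartile of all genes on all arrays and differed by 0.03 ± 0.12 after IFNa and -0.11 ± 0.14 after IFNg. Myd88, the adaptor that IL-18 and Toll-like receptors share, rose by 1.43 ± 0.31 after IFNa (adjusted p = 0.0459) and differed by 1.74 ± 0.37 after IFNg (adjusted p = 0.0664). Its untreated intensities were spread from 804 to 2335, against 3631 to 5222 after IFNa. Its IFNa call ended, among other alternatives, when any array other than untreated replicate 1 or 3 was left out, with the IFNg arrays left out together, and under median centring (adjusted p = 0.0719 to 0.111), and without both narrow arrays the rise was 0.85 ± 0.11 (adjusted p = 0.00515) after IFNa and 1.29 ± 0.13 (adjusted p = 0.00182) after IFNg. None of the other 8 measured genes of this list passed, among them Traf6 (0.36 and 0.51), a ubiquitin ligase gene, and Irak2 (0.08 and 0.30), a kinase gene of the same signal.

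Of 9 genes of IL-15 reception and signalling measured, none passed after either interferon, and 1 was higher and 1 lower after IFNa and 2 were higher after IFNg at an unadjusted p under 0.05, for which the shares of all genes are given above. Il2rb, the receptor chain through which NK cells receive IL-15, was dim, at 55.4 to 69.4 after IFNa and 55.1 to 63.2 after IFNg, against 63.2 to 75.8 untreated. Stat3, a transcription factor downstream of several cytokines, had the largest difference after IFNg (0.99 ± 0.21, adjusted p = 0.0566), and it passed without both narrow arrays (0.81 ± 0.16, adjusted p = 0.0428). Adam17, a protease that sheds surface proteins, differed by 0.23 after IFNa and 0.11 after IFNg.

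Other cytokines that act on NK cells did not pass in either comparison, 15 of 15 genes measured, with 2 higher and 2 lower after IFNa and none after IFNg at an unadjusted p under 0.05 (4.72% of all genes higher and 7.20% lower after IFNa, 5.36% and 2.87% after IFNg). Il12b, a subunit of IL-12, the partner of IL-18 in the activation of NK cells, had 93.9 to 141.4 after IFNa and 98.1 to 107.7 after IFNg, against 99.0 to 122.5 untreated. Il12a (0.08 and -0.22), Il27 (0.52 and 0.56) and Ifnb1 (0.08 and -0.05) likewise gave no call. Among 10 receptors of other cytokines and of interferons, Il4ra, the receptor chain for IL-4 and IL-13, rose after IFNg (1.30 ± 0.22, adjusted p = 0.0196). That call ended without either IFNg array, on leaving out untreated replicate 1 or 2, and under quantile normalization (adjusted p = 0.0684 to 0.244).

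Set directly against IFNg, IFNa gave none of the 70 genes higher (0.44% of all genes) and 3 lower (0.537% of all genes), with 3 and 10 at an unadjusted p under 0.05 (2.26% and 4.81% of all genes). The 3 were Il18rap, Il4ra (-1.17 ± 0.21, adjusted p = 0.0323) and Nlrp1b, an inflammasome sensor gene (-0.97 ± 0.18, adjusted p = 0.0326). The calls of Il4ra and Nlrp1b ended without either IFNg array, IFNa replicate 2 or 3, or untreated replicate 2 or 3, under quantile normalization and with the untreated arrays left out. That of Il4ra also ended without IFNa replicate 1 (adjusted p = 0.0562 to 0.467 over both). Casp1 differed between the interferons by -0.03 ± 0.23 and Casp4 by -0.25 ± 0.30.

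**Figure D5:**
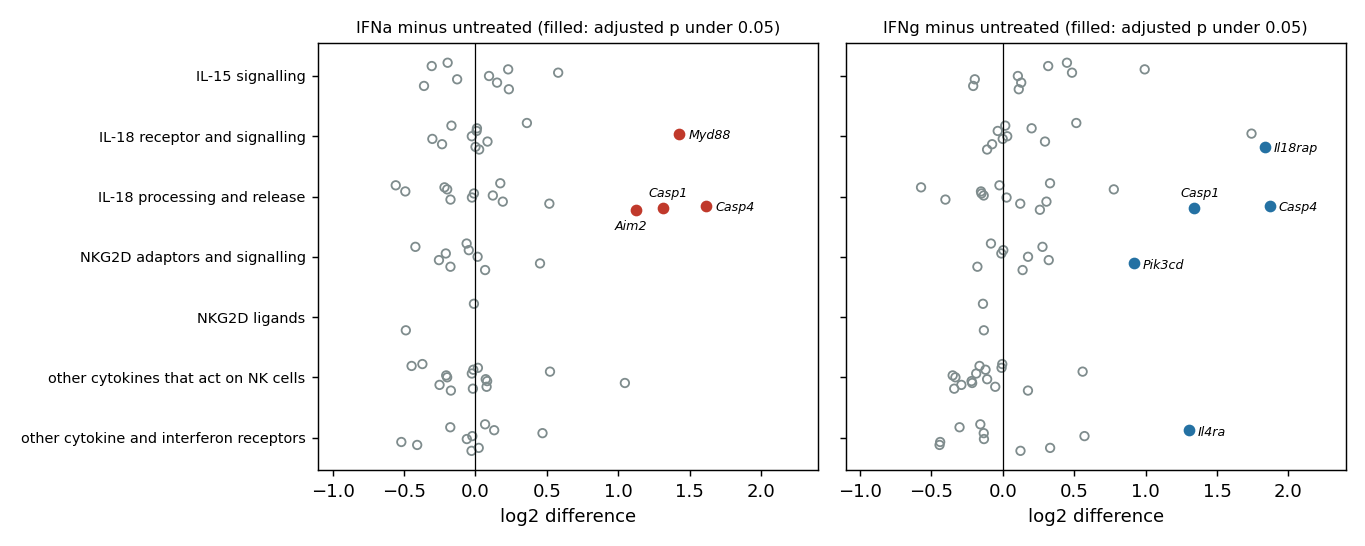
Log2 difference from untreated for 70 genes of the 7 pathway lists, IFNa on the left and IFNg on the right, 1 point a gene. Filled points passed an adjusted p of 0.05: 4 genes after IFNa, 3 of them in the list of IL-18 processing and release, and 5 after IFNg.

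Without IFNa replicate 4 and untreated replicate 1, the 2 arrays of narrow range, 4 pathway genes were higher and 4 lower after IFNa, 8 higher and 1 lower after IFNg, and 3 higher and 6 lower in IFNa against IFNg. The shares of all genes were then 2.37% and 3.23%, 1.81% and 0.734%, and 1.27% and 1.48%. The 4 higher after IFNa were again Aim2, Casp1, Casp4 and Myd88. The genes added after IFNg were Myd88, Nlrp1b (0.81 ± 0.14, adjusted p = 0.0248) and Stat3 as higher, and Nlrp3 as lower (-0.77 ± 0.11, adjusted p = 0.0118).

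The genes whose pattern over the 9 arrays was most like that of each of the 5 were found by Pearson's correlation of log2 levels. The arrays fall into 3 treatment groups, so this measure follows the order of the groups and has no p-value. Nearest to Il15 were Ifi209 (r = 0.993), Phf11a, Slfn8, Trim30d and Slfn9 (0.990 to 0.993 over the 5). Nearest to Il15ra were Slfn10-ps (0.987), Tasor2, Oas2, Parp10 and Parp14 (0.981 to 0.987). Il18 had Zc3hav1 (0.995), Washc4, Spred1, Rnf139 and Milr1 (0.988 to 0.995), and Klrk1 had Oas1b (0.993), Xaf1, B3gnt2, Ifi213 and Zup1 (0.985 to 0.993).

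Il18bp stood beside another set, Irf1 (0.990), Tap1, Apobec3, Tmem106a and Prr5l (0.986 to 0.990). All 5 of these were more different from untreated after IFNg than after IFNa, as Il18bp was: Irf1, a transcription factor gene, by 3.50 against 2.39 and Tap1, a peptide transporter gene of MHC class I, by 2.23 against 1.74. For the other 4 genes all 20 nearest genes had the larger difference after IFNa, such as Ifi209 (3.76 after IFNa and 2.08 after IFNg). The measure of likeness itself favours genes with the same order of groups. Ranked by Spearman's correlation instead, 0 to 2 of the 5 genes nearest to each were shared, and without the 2 narrow arrays 1 to 3.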

How the data were processed

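Messenger RNA of sorted peritoneal macrophages was measured on 9 arrays. The values deposited by the authors are RMA intensity, not on a log scale. Affymetrix Power Tools and RMA are named per the submitters' processing notes, and TriZol extraction per the labels. Which arrays were normalized together is not given in the sources used here. Arrays give no depth, and their number limits the precision.

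Log2 of each value was taken. Of 24922 probe sets, 21425 carried 1 symbol in the platform annotation, 1399 several and 2098 none, and the brightest on average stood for each of 19752 genes. No dim gene was removed. limma 3.58.1 (R 4.3.3) estimated the mean of IFNa, IFNg and untreated arrays together, with 1 variance per gene for all groups (6 residual and 3.62 prior degrees of freedom). P-values are two-sided, adjusted by Benjamini-Hochberg over all genes and called under 0.05, and errors of differences are SE from this fit. The fit was tested on simulated data. The labels do not say that replicates are separate mice, so p-values measure the spread between these samples, which may be technical.

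The 5 genes and all lists were chosen with earlier results of these data known. Genes named are the 5, genes of the lists, and the 5 most correlated with each, predicted genes left out. Alternatives were quantile normalization, median centring, 2 other variance priors, removal of the dimmest 30% of genes, a threshold of 0.01, only the arrays of the groups compared, a block by replicate number, all probe sets, and arrays left out. Promoter windows are from RefSeq. A second promoter motif was also searched and is not reported here. Python 3.11.15, pandas 2.3.3, NumPy 2.4.6 and matplotlib 3.10.9 were also used.

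Marker sums not given with the results were as follows. B cell markers (9 measured) summed to 882 to 2457 after IFNa, 886 to 954 after IFNg and 1061 to 1338 untreated, where IFNa replicate 2 stood apart and the other IFNa arrays reached 1342. Dendritic cell and monocyte markers (9 measured) summed to 2341 to 2808 after IFNa, 2810.4 to 3361 after IFNg and 2704 to 3080.5 untreated. Mast cell and granulocyte markers (11 measured) summed to 739.5 to 992 after IFNa, 772 to 774 after IFNg and 840.3 to 979.7 untreated. No gene of these 3 lists or of the T cell list was called against untreated in limma. At an unadjusted p under 0.05, 1 of 13 T cell and 1 of 11 mast cell or granulocyte markers were lower after IFNa (7.20% of all genes). After IFNg 1 of 9 dendritic cell or monocyte markers was higher (5.36% of all genes) and 2 of 11 mast cell or granulocyte markers were lower (2.87% of all genes). Of 8 interferon response genes measured, 6 were higher after IFNa and 5 after IFNg at an adjusted p under 0.05 in limma (1.79% and 1.24% of all genes). Among them were Ifit3, by log2 6.39 after IFNa, and Cxcl9, by 4.34 after IFNg. At an unadjusted p under 0.05, 7 were higher after IFNa and 8 after IFNg (4.72% and 5.36% of all genes).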

Additional observations from a re-analysis of the deposited data

How the results depend on the processing

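All 15 differences of the 5 genes between groups kept their direction under all 13 alternatives tried for each, among them leaving out each array. For Il15, IFNa minus untreated ranged from 2.25 to 2.65, for Il15ra from 1.73 to 1.96, for Il18 from 1.87 to 2.50, for Il18bp from 0.96 to 1.24 and for Klrk1 from 1.40 to 1.55. One moved by more than the spread between replicates: Il18bp, IFNa minus untreated, was 0.956 without both narrow arrays, and the cause was not tested. Counts of called pathway genes (4 higher and 0 lower after IFNa, 5 and 0 after IFNg, 0 and 3 for IFNa against IFNg) moved as follows, and the cause was not tested. For IFNa against untreated, 2 were higher at an adjusted p under 0.01, and 2, 4 and 1 were lower under quantile normalization, without both narrow arrays and with the replicate block by number. For IFNg, 8 were higher and 1 lower without both narrow arrays, 1 was lower under quantile normalization, 2 were higher with the IFNa arrays left out of the fit, which has fewer arrays, and 1 was higher at 0.01. For IFNa against IFNg, 1 and 3 were higher under quantile normalization and without both narrow arrays, and 1 with the replicate block. There 1 was lower under quantile normalization, with the untreated arrays left out of the fit and at 0.01, and 6 were lower without both narrow arrays. Leaving out 1 array gave 3 to 5 higher and 0 to 2 lower for IFNa, 1 to 7 higher and 0 lower for IFNg, and 0 to 1 higher and 1 to 4 lower for IFNa against IFNg. With 1 IFNg array left, that array is assumed to vary like the others. Same-numbered arrays deviated from their group means with correlations from -0.21 to 0.60, and arrays of different number with -0.61 to 0.61. These correlations cannot tell whether same-numbered arrays belong together, so the block is not read as a pairing. The replicate numbers are those of the sample titles, and the descriptions of some samples carry other numbers. With this replicate block the IFNa call of Myd88 ended (1.31, adjusted p = 0.0633). In the whole table the calls numbered 354 higher and 169 lower genes after IFNa, 245 and 22 after IFNg, and 87 and 106 for IFNa against IFNg. These became 500 and 421, 276 and 80, and 160 and 116 under quantile normalization, and 468 and 638, 358 and 145, and 250 and 292 without both narrow arrays. With the replicate block they were 587 and 240, 589 and 110, and 87 and 132. The dim probe set of Klrk1 limits how exactly its differences are known.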

Other observations

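Several pathway genes outside the calls above passed without IFNa replicate 4 and untreated replicate 1, and they were singled out after their values were seen. After IFNa these were lower: Ifngr2, a chain of the IFNg receptor (-0.68 ± 0.12, limma adjusted p = 0.0166), Tgfb1, a cytokine that restrains NK cells (-0.60 ± 0.10, adjusted p = 0.0169), Prtn3, a protease gene (-0.92 ± 0.17, adjusted p = 0.019), and Irak3, an inhibitor of the signal of IL-18 and Toll-like receptors (-0.45 ± 0.11, adjusted p = 0.0493). On all 9 arrays they differed from untreated by -0.52, -0.45, -0.56 and -0.30, and none passed (limma). Without those arrays Il10, an anti-inflammatory cytokine gene, was higher after IFNa than after IFNg (1.52 ± 0.29, adjusted p = 0.034), and on all 9 arrays it differed by 1.26 ± 0.38 (adjusted p = 0.305). Its intensities on the arrays were 68.7, 95.4, 155.8 and 48.6 after IFNa, against 33.7 and 36.4 after IFNg, and 31.7, 48.6 and 43.5 in untreated macrophages. In the same comparison without those arrays Nlrp3 was higher after IFNa (0.64 ± 0.10, adjusted p = 0.0162), and Stat3 (-0.76 ± 0.14, adjusted p = 0.0344), Stat5a (-0.63 ± 0.11, adjusted p = 0.0224) and Stat5b (-0.54 ± 0.11, adjusted p = 0.0465), 3 of the 9 measured IL-15 signalling genes, were lower. On all 9 arrays these 4 genes differed by 0.36, -0.76, -0.62 and -0.64, and none passed.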
